A study of Mus musculus with 12 samples.

Results

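The 10 genes described here encode parts of the T cell receptor complex and molecules that mark subsets of T cells. They are the CD3 chains Cd3d, Cd3e and Cd3g, the zeta chain Cd247, the delta receptor chain Trdc, the co-receptors Cd4 and Cd8a, the regulatory T cell factor Foxp3, and the receptors Ctla4 and Icos. They were taken by gene symbol from a table of 56691 genes, and all 10 were found in it. RNA came from the ears of mice labelled wild type, in 3 groups of 4 libraries. Blank ears were untreated, Model ears were given MC903 (calcipotriol, which acts on the vitamin D receptor) to induce atopic dermatitis, and IsoL ears are labelled with isoliensinine, an alkaloid of the lotus plant. The labels give no strain, age, sex, dose or day, and do not say whether IsoL ears also received MC903. The series calls its replicates biological, but no label ties a library to an animal, so each p-value reflects the spread among the libraries of a group.

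T cells recognise antigen with a receptor made of alpha and beta chains or of gamma and delta chains. Neither pair can signal alone, and each sits with CD3 gamma, delta and epsilon chains and a dimer of zeta chains, whose tyrosine motifs pass the signal on. Cd4 marks helper and regulatory cells and Cd8a marks cytotoxic ones. Mouse epidermis holds a resident population of gamma-delta cells, the dendritic epidermal T cells, whose receptor uses the segments Trgv5 and Trdv4, and mouse dermis holds alpha-beta and further gamma-delta cells.

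In the deposited coordinates, Cd247 (165616250 to 165704846), Ctla4 (60926159 to 60954991) and Icos (61017086 to 61039479) lie on chromosome 1. Cd8a (71350411 to 71356157) and Cd4 (124841655 to 124865184) lie on chromosome 6, Trdc (54380308 to 54386325) on chromosome 14 and Foxp3 (7439883 to 7461484) on chromosome X. Libraries held 13884927 to 18771831 counts. The coefficient of biological variation between libraries was 3.58% among Blank, 4.70% among Model and 9.24% among IsoL libraries. Genes with at least 1 FPKM (counts per kilobase of exon, scaled to the library total) in 4 or more libraries were tested, which left 15403 genes and 8 of the 10 members. Cd8a and Foxp3 lay below that filter. Cd4 and Icos were under 1 FPKM in every Blank library and entered through Model and IsoL, and Ctla4 reached 1 FPKM in 1 Blank library. Among genes named below, Trac, Lck, Il2rb, Il2ra, Tnfrsf9, Il10, Batf and Stat4 were also under 1 FPKM in every Blank library. So were Tigit, Scart1, Siglech, Ncr1 and Ly6g, and Ly6g passed through its Model libraries alone. Further such genes are given with the costimulatory and cytotoxic lists. For such genes a rise from Blank is partly set by the filter. Cd247 reached 1 FPKM in 3 Blank and 2 Model libraries but in no IsoL library, so its falls in IsoL are partly set by it too. Ikzf4 reached 1 FPKM in Blank libraries alone, and its fall from Blank is limited in the same way. The T cell markers Cd3d, Cd3e, Cd3g, Trac, Trbc2, Cd2 and Lck had counts in every library, from 2 for Trac in its lowest library to 239 for Cd3g in its highest.

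MC903 ears differed from untreated ears in opposite ways within this set. The co-receptor, regulatory and activation genes were 8.43-fold or more above Blank in Model, Cd3d was 2.09-fold higher, Cd3g and Trdc were lower, and Cd3e and Cd247 were not called. Of the 8 tested members, Cd3d, Cd4, Ctla4 and Icos rose, Cd3g and Trdc fell, and Cd3e and Cd247 did not pass edgeR's quasi-likelihood test at an adjusted p of 0.05. Over all tested genes, 70.1% were called in this comparison, 35.3% higher and 34.9% lower, so a call by itself says little here and the sizes carry the description. The libraries of Model and Blank did not overlap for 7 of the 10 members, against 67.4% of all tested genes. Of the called genes 50.3% were higher, against 39.0% without scaling factors between libraries.

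**Figure D1:**
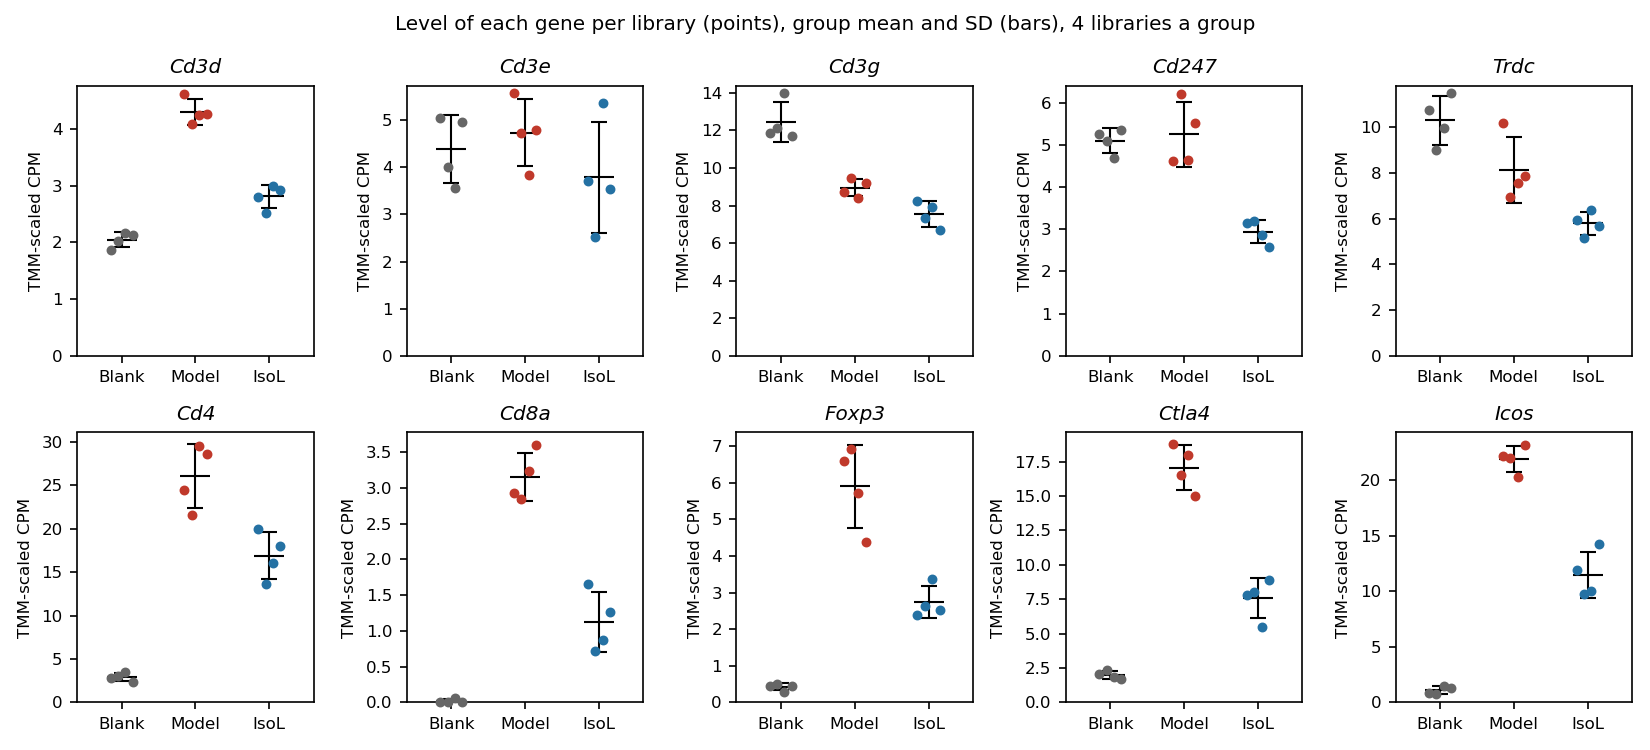
TMM-scaled CPM (y axis, each from 0) of the 10 genes in 4 Blank, 4 Model and 4 IsoL libraries (points), with the group mean and SD (bars). Cd4, Cd8a, Foxp3, Ctla4 and Icos are lowest in all 4 Blank libraries and highest in all 4 Model libraries, Cd3g and Trdc have their highest mean in Blank, and the Cd3e groups overlap.

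Icos, a costimulatory receptor that T cells display after activation, showed the largest fold among the tested members. It stood at 0.876, 0.790, 1.46 and 1.33 counts scaled to the library total (CPM, scaled with TMM factors) in the Blank libraries, at 22.1, 22.0, 20.3 and 23.1 in the Model libraries, and at 11.9, 9.74, 9.998 and 14.2 in the IsoL libraries. The 3 groups did not overlap, and IsoL lay between the others. Icos was 19.6-fold higher in Model (log2 4.29 ± 0.16 SE, n = 4 each, edgeR adjusted p = 2.8e-16). Of the tested genes, 362 had a larger log2 change. In IsoL it was lower than in Model by 0.93 ± 0.11 on the log2 scale (edgeR adjusted p = 3.8e-07) and 10.3-fold higher than in Blank.

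Ctla4, the inhibitory receptor that competes for the ligands Cd80 and Cd86 and that regulatory T cells carry at high levels, followed the same order. Its levels were 2.08, 2.37, 1.87 and 1.73 CPM in the Blank libraries, 18.77, 16.5, 18.0 and 15.0 in the Model libraries, and 7.83, 7.99, 5.50 and 8.93 in the IsoL libraries. Model was 8.43-fold above Blank (log2 3.08 ± 0.15, edgeR adjusted p = 2.8e-14). IsoL was below Model by 1.17 ± 0.12 on the log2 scale (edgeR adjusted p = 4.4e-08), the largest fall among the tested members, and no IsoL library reached a Model library. It remained 3.75-fold above Blank.

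Foxp3, the transcription factor that defines regulatory T cells, was scarce in untreated ears. Its levels were 0.438, 0.508, 0.293 and 0.461 CPM in Blank, from 30 counts in the group, 6.60, 6.92, 5.72 and 4.39 CPM in Model, from 358 counts, and 2.40, 2.64, 3.37 and 2.52 CPM in IsoL, from 184 counts. No libraries overlapped between groups. The mean was 13.903-fold higher in Model than in Blank and 6.44-fold higher in IsoL than in Blank. Foxp3 was below the filter, and its CPM values were compared by exact permutation, two-sided. Each of the 3 comparisons gave p = 0.0286, which is the lowest value possible with 4 libraries a group, and it stayed at 0.0286 when adjusted over 6 such exact permutation tests. Without the filter, edgeR gave a log2 change of 3.78 ± 0.26 for Model against Blank and of -1.10 ± 0.20 for IsoL against Model, both called, where 37.7% and 23.8% of 35185 genes were called. Several annotated genes overlap Foxp3, among them Gm36995 on the opposite strand with 246 counts in all libraries together against 572 for Foxp3. The sources do not state the strand setting of the counting, so reads of such pairs cannot be told apart.

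Cd4, the co-receptor for class II molecules, had 2.85, 3.05, 3.45 and 2.31 CPM in the Blank libraries, 24.5, 21.6, 29.5 and 28.6 in the Model libraries, and 19.95, 13.6, 16.1 and 18.0 in the IsoL libraries. Every IsoL library lay below every Model library and above every Blank library. Model was 8.91-fold above Blank (log2 3.16 ± 0.14, edgeR adjusted p = 8.3e-15), and IsoL was below Model by 0.62 ± 0.11 on the log2 scale (edgeR adjusted p = 8.1e-05) and 5.80-fold above Blank. In mice some dendritic cells also make Cd4.

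Cd8a, one chain of the co-receptor for class I molecules, was almost without counts in untreated ears. It held 0, 0, 1 and 0 counts in the Blank libraries, 40, 48, 48 and 54 in the Model libraries, and 29, 12, 14 and 22 in the IsoL libraries. The 190 counts of Model against the 1 count of Blank give a ratio of 201 after scaling to the library totals, with a 95% exact counting interval of 35.7 to 7991, which covers counting error only. The exact permutation test gave p = 0.0286 in each comparison, and 0.0286 after adjustment. Without the filter edgeR gave -1.46 ± 0.29 for IsoL against Model. Cd8b1, the partner chain, was also below the filter and held 6, 55 and 33 counts in Blank, Model and IsoL. Some mouse dendritic cells make Cd8a without Cd8b1. Of their markers, Xcr1 held 53, 37 and 38 counts and Clec9a 37, 217 and 144 in the same order of groups.

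The CD3 chain genes did not move together. Cd3g, Cd3d and Cd3e lie side by side on chromosome 9, within 40056 bases in the coordinates of the deposited table, for which the sources name no genome build. Cd3g (44880870 to 44891729, minus strand) and Cd3d (44893084 to 44898637, plus strand) are transcribed away from each other, with 1355 bases between their starts. Cd3e (44910038 to 44920925, minus strand) lies beyond the far end of Cd3d. The promoters of these neighbours are shown because Cd3g and Cd3d changed in opposite directions. They are the 250 bases before each start, read 5′ to 3′ on the gene's own strand, from RefSeq on GRCm38.p6, whose coordinates are not those of the deposited table, at chr9:44980432-44980681 for Cd3g, chr9:44981536-44981785 for Cd3d and chr9:45009612-45009861 for Cd3e. Capitals mark CACCTG, the E-box that E proteins prefer, or GGAAGT, an ETS core, on either strand.
Cd3g: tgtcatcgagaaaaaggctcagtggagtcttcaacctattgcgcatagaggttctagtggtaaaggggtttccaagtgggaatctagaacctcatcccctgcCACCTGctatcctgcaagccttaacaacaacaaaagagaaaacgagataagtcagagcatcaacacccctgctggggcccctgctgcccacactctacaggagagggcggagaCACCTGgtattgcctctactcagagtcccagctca
Cd3d: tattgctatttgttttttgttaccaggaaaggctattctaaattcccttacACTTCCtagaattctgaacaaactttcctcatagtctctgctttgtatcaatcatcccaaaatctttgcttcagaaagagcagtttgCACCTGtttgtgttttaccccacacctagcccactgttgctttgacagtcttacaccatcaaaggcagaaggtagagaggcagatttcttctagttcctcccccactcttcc
Cd3e: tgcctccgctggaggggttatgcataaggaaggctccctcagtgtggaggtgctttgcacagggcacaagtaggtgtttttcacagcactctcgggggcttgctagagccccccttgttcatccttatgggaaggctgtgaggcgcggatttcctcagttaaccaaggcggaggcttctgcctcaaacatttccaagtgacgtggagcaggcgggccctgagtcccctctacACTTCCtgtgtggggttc

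The E-box stood at 2 places in the Cd3g window, at 1 in the Cd3d window and nowhere in the Cd3e window, while the ETS letters stood once each before Cd3d and Cd3e. Neither TATAAA nor the RUNX letters TGTGGT occurred in these 3 windows on either strand, and no motifs overlapped. Of 32851 RefSeq windows of the same length, 17.2% held CACCTG, 19.7% GGAAGT, 12.4% TATAAA and 14.1% TGTGGT, so these matches are common letters and only a description. Windows were found for 7 of the 10 members. Among them TATAAA occurred before Foxp3 alone, in 1 of its 2 windows.

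Cd3g, the CD3 gamma chain, had 11.9, 12.1, 13.99 and 11.7 CPM in the Blank libraries, 8.72, 9.46, 8.42 and 9.18 in the Model libraries, and 8.23, 7.33, 7.94 and 6.70 in the IsoL libraries. Blank lay above both other groups without overlap. Cd3g was lower in Model than in Blank by 0.47 ± 0.10 on the log2 scale (edgeR adjusted p = 0.000215) and lower in IsoL than in Blank by 0.72 ± 0.10 (edgeR adjusted p = 1.3e-06). IsoL and Model did not overlap either, but their difference of -0.25 ± 0.10 missed the threshold (edgeR adjusted p = 0.0563). It was called with DESeq2 size factors, without scaling factors, with limma-trend at both pseudocounts and without IsoL replicate 1, and its adjusted p ran from 0.0128 to 0.168 over 21 alternatives.

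Cd3d, the CD3 delta chain, moved the other way. Its levels were 1.86, 2.03, 2.17 and 2.13 CPM in the Blank libraries, 4.62, 4.08, 4.24 and 4.26 in the Model libraries, and 2.80, 2.52, 2.9995 and 2.92 in the IsoL libraries. No libraries overlapped between groups. Cd3d was 2.09-fold higher in Model than in Blank (log2 1.07 ± 0.16, edgeR adjusted p = 4.2e-06), and it fell from Model to IsoL by 0.61 ± 0.15 (edgeR adjusted p = 0.00234). IsoL was above Blank by 0.46 ± 0.17 (edgeR adjusted p = 0.0193), a call lost without scaling factors (adjusted p = 0.157), without the filter (0.0733) and without Blank replicate 1 (0.0528). Cd3g held 5.49 to 6.46 counts per count of Cd3d in Blank, with 1.89 to 2.32 in Model and with 2.29 to 2.94 in IsoL, a ratio chosen after its values were seen and given without a test.

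**Figure D2:**
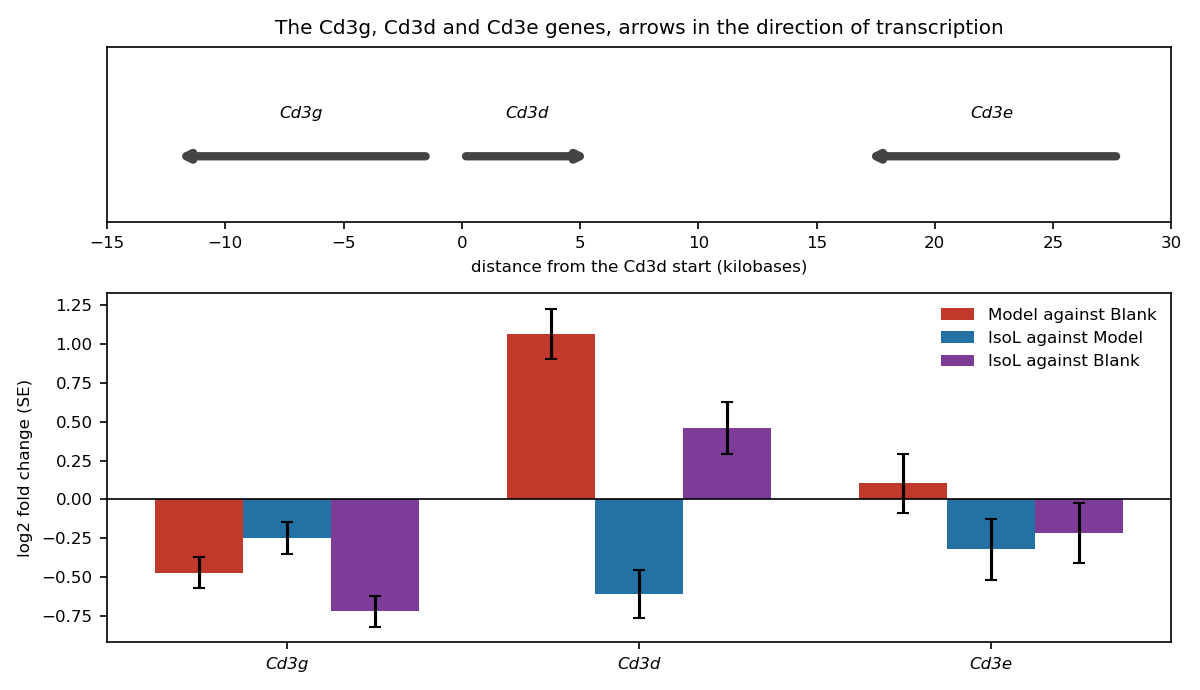
Top, positions of Cd3g, Cd3d and Cd3e by distance from the Cd3d start in kilobases, with arrows in the direction of transcription. Bottom, edgeR log2 fold changes (bars from 0, error bars SE) in the 3 comparisons; for Model against Blank, Cd3g lies at -0.47, Cd3d at 1.07 and Cd3e at 0.10.

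Cd3e, the CD3 epsilon chain, was not called in any of the 3 comparisons. It had 5.04, 4.01, 3.57 and 4.96 CPM in the Blank libraries, 5.57, 4.73, 3.84 and 4.79 in the Model libraries, and 3.72, 2.52, 5.37 and 3.55 in the IsoL libraries, and all 3 groups overlapped. The log2 difference between Model and Blank was 0.10, with a 95% interval of -0.29 to 0.50 (edgeR adjusted p = 0.646), which turned to -0.034 without scaling factors. IsoL against Model gave -0.32 (interval -0.73 to 0.08, edgeR adjusted p = 0.185) and IsoL against Blank -0.22 (-0.62 to 0.18, edgeR adjusted p = 0.322). IsoL replicate 3 stood above the other IsoL libraries, and without it both were called, at -0.53 (edgeR adjusted p = 0.0253) and -0.43 (0.0485).

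Cd247, the zeta chain, which natural killer cells also use, had 5.26, 5.08, 4.68 and 5.36 CPM in the Blank libraries, 4.62, 6.21, 4.65 and 5.52 in the Model libraries, and 3.14, 3.19, 2.87 and 2.58 in the IsoL libraries. Blank and Model overlapped, and every IsoL library lay below both. Model against Blank gave 0.05 (interval -0.24 to 0.34, edgeR adjusted p = 0.770), which turned to -0.089 without scaling factors. IsoL was lower than Model by 0.84 ± 0.15 on the log2 scale (edgeR adjusted p = 6.9e-05) and lower than Blank by 0.79 ± 0.15 (edgeR adjusted p = 6.6e-05). Cd247 passed the filter through Blank and Model libraries, so both falls are partly set by the filter. Pou2f1, which overlaps Cd247 over 12124 bases on the opposite strand, held 5647 counts over all libraries against 878 for Cd247.

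Trdc, the constant part of the delta chain and so a gene of gamma-delta T cells, had 10.7, 8.97, 9.95 and 11.5 CPM in the Blank libraries, 10.2, 6.92, 7.54 and 7.85 in the Model libraries, and 5.95, 5.17, 6.37 and 5.67 in the IsoL libraries. Model replicate 1 lay within the Blank range and the other Model libraries below it, while all IsoL libraries lay below both groups. Trdc fell by 0.35 ± 0.12 on the log2 scale from Blank to Model (edgeR adjusted p = 0.0154). That call was lost without Blank replicate 4 (adjusted p = 0.0580) and without Model replicate 2 (0.0671). IsoL was below Model by 0.48 ± 0.13 (edgeR adjusted p = 0.00416) and below Blank by 0.83 ± 0.13 (edgeR adjusted p = 4.6e-06). In a bulk sample, fewer cells of a type and less RNA per cell cannot be told apart.

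**Figure D3:**
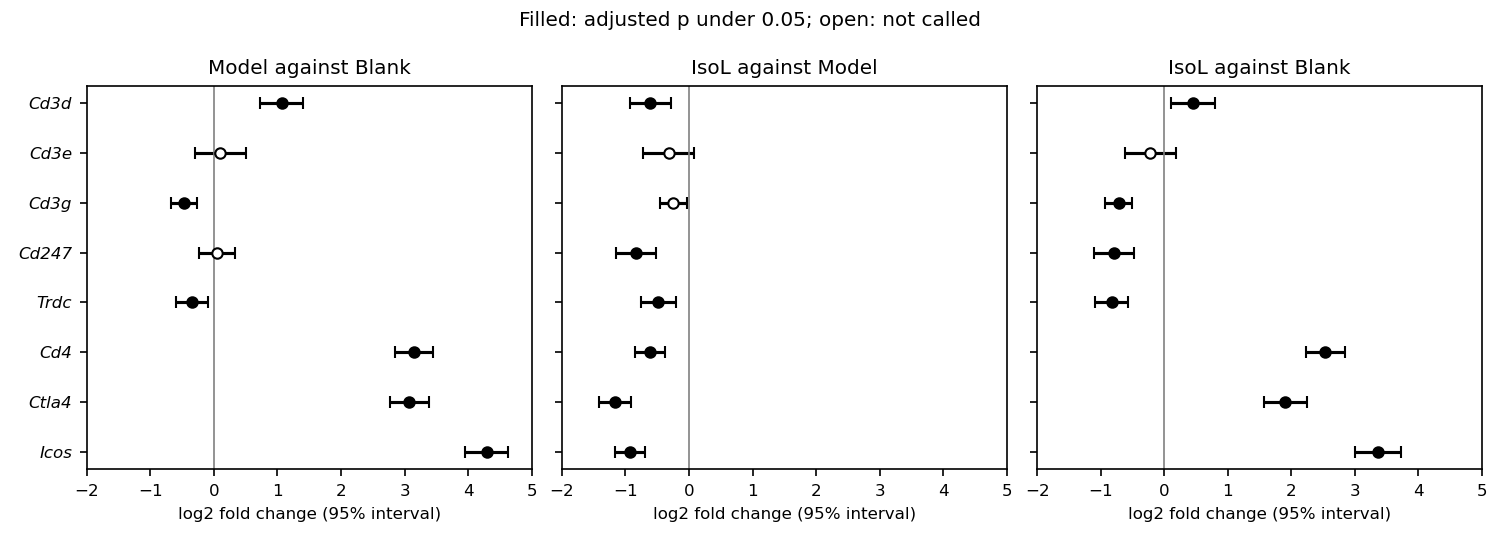
edgeR log2 fold changes of the 8 tested genes with 95% intervals (x axis) in Model against Blank, IsoL against Model and IsoL against Blank, filled where the adjusted p was under 0.05. Cd4, Ctla4 and Icos lie between 3.08 and 4.29 for Model against Blank, and every point lies below 0 for IsoL against Model.

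For IsoL against Model, 6 of the 8 tested members fell and none rose, where 49.3% of all tested genes were called, 25.2% lower and 24.1% higher. Cd247, counted among the 6, passed the filter through Blank and Model libraries. Cd3e and Cd3g gave values below 0 that missed the threshold. The libraries did not overlap for 9 of the 10 members, against 42.7% of all tested genes. Cd8a and Foxp3, by the exact permutation test, were lower as well. Against Blank, IsoL ears had Cd3d, Cd4, Ctla4 and Icos higher and Cd3g, Cd247 and Trdc lower among the 8, where 70.5% of all tested genes were called, 36.5% higher and 34.0% lower. Libraries did not overlap for 9 of the 10 members here too, against 63.7% of all tested genes, and without the filter 36.6% of genes were called. Each group serves in 2 of the 3 comparisons, so they share libraries.

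Ratios within a library do not depend on the scaling between libraries. Trdc, Cd3g, Cd4, Cd8a and Foxp3 were set against Cd3e, a chain of every T cell receptor complex, and compared with exact two-sided permutation tests adjusted over the 15 tests. From Blank to Model, Cd3e gave a log2 change of 0.10, while Cd3d rose by 1.07 and Cd3g fell by 0.47. The size of each ratio therefore depends on the choice of Cd3e. Per count of Cd3e there were 2.37 ± 0.289 (SD, n = 4) counts of Trdc in Blank, 1.72 ± 0.2196 in Model and 1.61 ± 0.352 in IsoL. All 4 Blank ratios lay above all Model and IsoL ratios (exact permutation p = 0.0286, adjusted 0.0429, for both), and IsoL and Model did not differ beyond their spread (adjusted p = 0.643, exact permutation). Cd3g per Cd3e was lower in Model than in Blank, at 1.92 ± 0.262 against 2.92 ± 0.738 (adjusted p = 0.0429, exact permutation), and in IsoL, at 2.12 ± 0.604, it missed the threshold against both.

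The subset genes rose against Cd3e. Foxp3 per Cd3e was 0.0972 ± 0.0202 in Blank, against 1.26 ± 0.270 in Model and 0.758 ± 0.196 in IsoL, and Cd4 per Cd3e was 0.690 ± 0.222, 5.65 ± 1.53 and 4.71 ± 1.16. Both were higher in Model and in IsoL than in Blank (adjusted p = 0.0429 each, exact permutation). Between IsoL and Model, Cd8a per Cd3e was lower in IsoL, at 0.312 ± 0.119 against 0.680 ± 0.143 (adjusted p = 0.0429, exact permutation), whereas Foxp3 (0.0779) and Cd4 (0.527) were not called. In this comparison Cd8a was the single ratio of the 5 to pass. Its unadjusted p of 0.0286 is the lowest possible with 4 libraries a group, and Foxp3 gave 0.0571 (exact permutation). The adjusted 0.0429 also depends on how many of the 15 tests reached that lowest p, so it does not grade Cd8a against Foxp3.

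**Figure D4:**
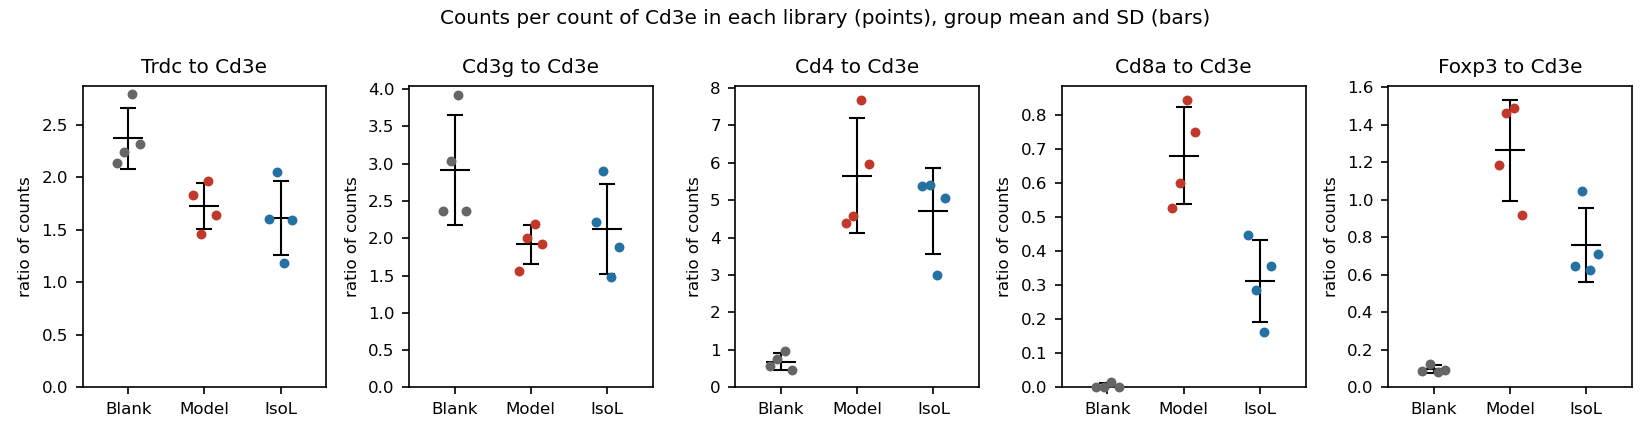
Counts of Trdc, Cd3g, Cd4, Cd8a and Foxp3 per count of Cd3e (y axis, from 0) in each library (points), with group mean and SD (bars), 4 libraries a group. Trdc per Cd3e is 2.13 to 2.79 in Blank and 1.46 to 1.96 in Model, and Foxp3 per Cd3e is 0.0820 to 0.127 in Blank and 0.917 to 1.49 in Model.

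Per kilobase of exon, the order of the members turned over between groups. In Blank, Cd3g (4.10 FPKM, group mean) and Trdc (2.87) led without overlap between them or with the next, Cd3d (1.22). Cd3d, Cd3e (1.16), Cd247 (1.03), Ctla4 (0.932) and Cd4 (0.782) followed, each overlapping its neighbour in this order, and Icos (0.350), Foxp3 (0.10) and Cd8a (0.005) came last without overlap. In Model, Ctla4 (7.18), Cd4 (6.33) and Icos (6.26) led and overlapped each other, and all their libraries were above those of Cd3g (2.68). In IsoL the same 3 led, at 3.06 to 3.96 FPKM, but Ctla4 and Cd3g (2.19) overlapped. Exonic lengths sum all annotated exons, which limits such comparisons between genes.

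Of 14 alpha-beta receptor and T cell surface genes 9 were tested, and in Model against Blank 7 rose and 1, Bcl11b, fell, with a median log2 change of 0.78 against -0.01 over all tested genes. Trac, the alpha constant gene, had 2 to 13 counts a library in Blank and 23 to 40 in Model (log2 2.57 ± 0.42, edgeR adjusted p = 1.0e-05). Trbc1 and Trbc2, the nearly identical beta constant genes, rose by 1.60 ± 0.18 and 0.78 ± 0.14, although reads may be split between them uncertainly. From Model to IsoL, Trbc1 fell by 1.01 ± 0.17, while Trac gave -0.69 ± 0.33 (edgeR adjusted p = 0.0947). Trbc2 stood at 8.71 CPM in Model and 8.73 CPM in IsoL (edgeR adjusted p = 0.994). Il7r, the IL-7 receptor, rose by 3.19 ± 0.09 and then fell by 1.53 ± 0.08. Cd2, an adhesion receptor, rose by 2.54 ± 0.25 and fell by 0.93 ± 0.21. From Model to IsoL, 5 of the 9 fell and Bcl11b rose, with a median of -0.69 against 0.01 over all tested genes. The share of all tested genes called higher in Model against Blank was 35.3%, and that called lower in IsoL against Model was 25.2%.

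The segments of the epidermal gamma-delta receptor were lower in both treated groups. Trgv5 held 12 to 18 counts a library in Blank, against 2 to 5 in Model and 0 to 4 in IsoL, and Trdv4 held 27 to 38, 13 to 26 and 6 to 18. Both had no overlap between Blank and the other groups in CPM. Trgv5 fell by 1.62 ± 0.45 from Blank to Model (edgeR adjusted p = 0.00315) and by 2.49 ± 0.50 from Blank to IsoL (0.000138), and Trdv4 fell by 0.68 ± 0.28 (edgeR adjusted p = 0.0353) and 1.34 ± 0.30 (0.000399). Trgc1, the gamma constant gene, gave -0.30 ± 0.25 from Blank to Model (edgeR adjusted p = 0.295) and fell from Blank to IsoL by 0.999 ± 0.26 (0.00199). These counts are low, and Trgv5 passed the filter through its Blank libraries.

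**Figure D5:**
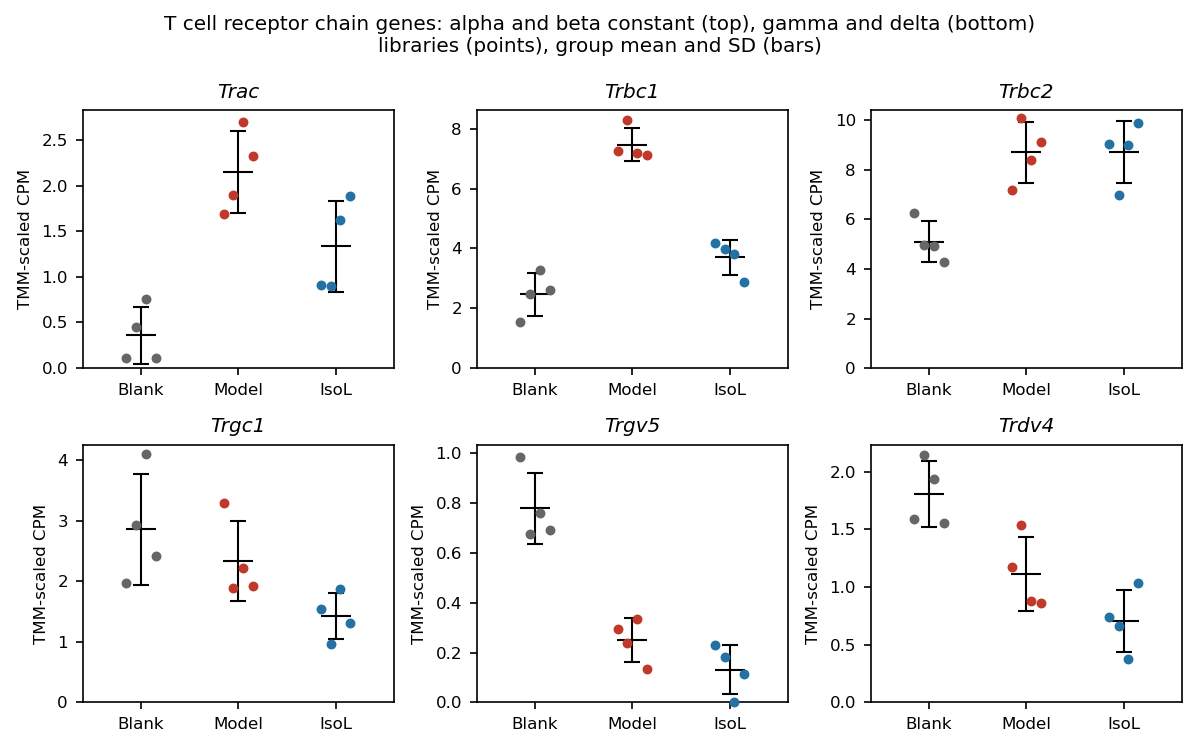
TMM-scaled CPM (y axis, each from 0) of the alpha and beta constant genes Trac, Trbc1 and Trbc2 (top) and of the gamma and delta genes Trgc1, Trgv5 and Trdv4 (bottom) in each library (points), with group mean and SD (bars). Trac has 2 to 13 counts a library in Blank and 23 to 40 in Model, while Trgv5 has 12 to 18 in Blank and 2 to 5 in Model.

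Of 10 genes listed for dendritic epidermal T cells 9 were tested, and in Model 5 rose, Itgae, Klrk1, Jaml, Nkg7 and Il2rb, and 2 fell, Trgv5 and Trdv4. Jaml, an adhesion molecule that neutrophils also carry, rose by 3.22 ± 0.06, and Il2rb, a receptor chain for IL-2 and IL-15 shared with natural killer cells, by 3.08 ± 0.17. From Model to IsoL 5 fell and none rose, with Klrk1 lower by 1.21 ± 0.13, Il2rb by 1.20 ± 0.14 and Nkg7 by 0.98 ± 0.23. Of all tested genes, 70.1% were called in Model against Blank and 49.3% in IsoL against Model. The numbers called in this list therefore say little by themselves. Among 11 genes of IL-17-type gamma-delta cells only 4 were tested. Scart1, a scavenger receptor of these cells, rose by 1.29 ± 0.14 in Model, and Maf (-0.52 ± 0.05), a transcription factor that other skin cells also make, fell. The segments Trgv4 and Trgv6 held 9 and 2 counts in Blank, against 4 and 16 in Model and 12 and 7 in IsoL.

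Signalling genes behind the receptor rose in 11 of 15 tested cases in Model and fell in Rasgrp1, Plcg1 and Nfatc2, with a median of 1.12. Lck, the kinase that starts receptor signalling, went from 2.17 to 8.05 CPM (log2 1.89 ± 0.18). The largest rises were in Lcp2 (4.11 ± 0.08), Vav1 (3.90 ± 0.11) and Ptprc (3.48 ± 0.06), which myeloid cells also use. In IsoL, 12 of the 15 were lower than in Model, Plcg1 was higher, and the median was -0.52. Of all tested genes, 35.3% were called higher in Model against Blank and 25.2% lower in IsoL against Model. Lck fell by 0.52 ± 0.16 and Ptprc by 1.49 ± 0.05. Zap70, the kinase that binds the CD3 and zeta tyrosine motifs, was below the filter, with 56, 174 and 106 counts in Blank, Model and IsoL.

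Genes listed for regulatory T cells mostly moved in the direction of Foxp3. In Blank, Capg (73.1 CPM), Entpd1 (28.5) and Lrrc32 (12.2) stood far above Foxp3 (0.425), while Il10 (0.200) and Tigit (0.173) were below it. The part of other cells in the levels of this list was not tested. In Model 8 of 11 tested genes rose, with a median of 1.38, and 2 transcription factors of the Ikaros family, Ikzf2 and Ikzf4, fell. Il2ra, the high-affinity IL-2 receptor chain, rose by 3.604 ± 0.14, the costimulatory receptor Tnfrsf9 by 3.61 ± 0.15 and the cytokine Il10 by 4.30 ± 0.30. Ikzf2, known as Helios, fell from 65.3 to 27.9 CPM (-1.23 ± 0.08) and stood at 17.1 CPM in IsoL. From Model to IsoL 8 of 11 fell and none rose, with Il2ra lower by 1.05 ± 0.11 and Entpd1, an enzyme that degrades extracellular ATP, by 1.41 ± 0.06. Among all tested genes, 35.3% were called higher in Model against Blank and 25.2% lower in IsoL against Model. Of 9 factors of helper lineages 8 were tested, and in Model Batf (4.32 ± 0.26), Stat4 (3.66 ± 0.28) and Stat6 rose while Gata3 (-1.55 ± 0.07), Rora, Bcl6 and Ahr fell. In that comparison 70.1% of all tested genes were called, so the number of helper factors called says little. Keratinocytes also make Gata3.

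Markers of other leukocytes differed in how they moved. In Model against Blank, 35.3% of all tested genes were called higher and 34.9% lower. The shares for IsoL against Model were 24.1% higher and 25.2% lower. All 8 monocyte and macrophage markers rose in Model and fell from Model to IsoL, and their summed level was 348 to 374 CPM in Blank, against 3017 to 3345 in Model and 1503 to 1744 in IsoL. All 6 neutrophil markers did likewise, at 42.4 to 87.2, 3232 to 3551 and 423 to 560 CPM, with Ly6g at 0 in Blank. Natural killer and type 2 innate lymphoid cell markers, a list that covers innate cells able to carry Icos, summed to 19.9 to 24.5, 899 to 990 and 189 to 270 CPM. Most of that sum in Model and IsoL was Arg1, which macrophages also make, with group means of 12.8, 835 and 168 CPM. Of these 9 markers 4 were tested and rose in Model, and from Model to IsoL 3 fell while Areg, a growth factor, rose by 0.61 ± 0.09 on the log2 scale (edgeR adjusted p = 7.7e-06). Ncr1, a natural killer cell receptor, held 2, 222 and 98 counts in the 3 groups. Of 10 dendritic and Langerhans cell markers 6 were tested, and in Model Itgax (3.27 ± 0.08), Siglech (3.83 ± 0.13) and Cd209a rose and Cd207 (-2.19 ± 0.11), Epcam and Mgl2 fell. From Model to IsoL, 2 of the 6 rose and 2 fell. This list summed to 212 to 224 CPM in Blank, against 206 to 220 in Model and 156 to 177 in IsoL. Most of the Blank sum was Epcam, with group means of 135, 57.2 and 58.2 CPM in Blank, Model and IsoL. Itgax had 8.33, 80.5 and 27.1 CPM in the same order, so near-equal sums do not mean that these markers stayed level. The B and plasma cell list, with 2 of 7 genes tested, summed to 10.1 to 13.2, 24.9 to 29.3 and 17.4 to 24.8 CPM. Most of that was Ighm, with group means of 11.1, 23.7 and 19.0 CPM. All 7 mast cell markers rose in Model, to a sum of 340 to 385 CPM from 129 to 146, with 338 to 377 in IsoL. From Model to IsoL 1 of the 7, Cma1, rose and none fell. The part of these cells in the levels of Cd4, Cd8a, Cd247, Ctla4 and Icos was not tested. Keratinocyte keratins summed to 15498 to 16554 CPM in Blank, against 10712 to 13055 in Model and 23378 to 26896 in IsoL.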

How the data were processed

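Trizol RNA was purified on poly-T beads and copied from random primers, per the labels' protocols. Per the submitters' processing notes the tools were fastp 0.22.0, HISAT2 2.1.0 and HTSeq 0.9.1. The deposited table holds raw counts per gene and FPKM values, both named so per the file headers. FPKM recomputed from the counts, exonic lengths and library totals matched the authors' values for 100% of the genes. Coordinates are those of the table.

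The deposited counts were scaled with TMM factors and tested with edgeR 4.0.16 in R 4.3.3, 1 fit of 3 groups without covariates, with two-sided p-values adjusted by the Benjamini-Hochberg method over 15403 genes. SEs were derived from the F statistic. DESeq2 1.42.0, limma 3.58.1 on log2(FPKM + 1) or log2(FPKM + 0.1), other scaling and filters and left-out libraries were alternatives. The test was checked on simulated counts of Blank and Model in which few genes changed. In the real data most tested genes were called between these groups, so that check does not cover the scaling. Ratios with a count of 0 were compared on the linear scale. Intervals of count ratios cover counting error only, and those of log2 changes come from the edgeR fit and include the spread between libraries.

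The members and lists were chosen with earlier results of these data known. Every member is named, and of each list up to 3 called genes with the largest change per comparison, those against the other members, and further genes picked after their values were seen, such as the receptor chains. The names of 4 gamma chain genes and of Scart1 were matched by gene ID. Some listed genes are not reported here.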

Additional observations from a re-analysis of the deposited data

Results flagged for a closer look

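In 3 of 45 sets of 4 libraries, 1 library stood apart from the other 3 by the gap relative to the range. For normally distributed values chance gives about 1 in 20 sets, a rate that does not hold for counts near 0. Cd8a in Blank was 0.0585 CPM in replicate 3, from 1 count, and 0 in the others, and with it the Cd8a to Cd3e ratio was 0.0164 there. A lone count where the other libraries hold none always meets this rule, and both Cd8a flags rest on that count. The Cd4 to Cd3e ratio of IsoL replicate 3 was 2.99, below the other IsoL libraries, in the library where Cd3e had its highest IsoL value.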

How the results depend on the processing

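Over the alternatives, the calls for Cd3g, Cd4, Ctla4, Icos and Cd3d in Model against Blank, for Cd3d, Cd247, Trdc, Cd4, Ctla4 and Icos in IsoL against Model, and for Cd3g, Cd247, Trdc, Cd4, Ctla4 and Icos in IsoL against Blank kept their direction and side of the threshold under all 21. In Model against Blank, Cd3e turned to -0.034 without scaling factors, to -0.016 with limma-trend on log2(FPKM + 1) and to -0.027 on log2(FPKM + 0.1). Cd247 turned to -0.089, -0.051 and -0.096 under the same settings and ran from -0.047, without Model replicate 2, to 0.104 when single libraries were left out. None of these values was called, and the cause was not tested. Leaving out single libraries left 1 to 2 members called lower in Model against Blank and 6 to 7 in IsoL against Model. Dropping the scaling factors moved the median log2 change of all tested genes from -0.01 to -0.14 in Model against Blank and from 0.02 to -0.18 in IsoL against Blank. In IsoL against Model 39.6% of calls were then higher, against 49.0%. Deviations of same-numbered libraries correlated at -0.13 to 0.03, and in 4 of 24 comparisons a library matched its own number best. No shared signal of equal numbers was seen, but with 4 libraries a group this check is weak. The labels do not state what the numbers mean. With the replicate block, 4 members were called higher and 2 lower in Model against Blank, as without it, and no member's call changed. Cd8a and Foxp3 could be fitted only without the filter or with filterByExpr, and both gave the same calls. Counts under 10 a library, as for Foxp3 in Blank and Trgv5 in Model and IsoL, limit the precision of those folds.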

Other observations

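Costimulatory and checkpoint genes were higher in MC903 ears than in untreated ears, and most were lower in IsoL ears than in MC903 ears. In IsoL against Blank, 9 of 10 tested genes were higher and none lower, with a median log2 change of 1.71, where 36.5% of all tested genes were called higher. In Model against Blank all 10 tested genes of this list rose, with a median log2 change of 2.93, and in IsoL against Model 8 fell and none rose, with a median of -1.17. Over all tested genes, 35.3% were called higher in the first of these and 25.2% lower in the second. Cd80, Pdcd1lg2, Pdcd1 and Btla were under 1 FPKM in every Blank library and passed the filter through other groups, so the count of rises is partly set by the filter. Pdcd1 was under 1 FPKM in every IsoL library too, so the count of falls is also partly set by it. Pdcd1lg2 (PD-L2) rose by 6.45 ± 0.28, Cd80, a ligand of Ctla4, by 4.93 ± 0.13 and Havcr2 by 3.53 ± 0.08. Cd274 (PD-L1) fell from 331 CPM in Model to 59.1 CPM in IsoL (-2.49 ± 0.05). Icosl, the ligand of Icos, rose from 7.13 to 16.5 CPM in Model and stood at 14.9 CPM in IsoL (-0.14 ± 0.09 against Model, edgeR adjusted p = 0.232).

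Genes of cytotoxic lymphocytes rose in all 7 tested cases in Model, among them Ifng, which had no counts in Blank, and all 7 fell from Model to IsoL, with a median of -1.55. Over all tested genes, 35.3% were called higher in the first comparison and 25.2% lower in the second. Gzma, Gzmb, Fasl, Ifng and Ccl5 were under 1 FPKM in every Blank library, and Fasl and Ifng in every IsoL library too. Prf1 was under 1 FPKM in every IsoL library and reached it in 2 Blank and 4 Model libraries. They passed the filter through the groups where they were high, so these counts are partly set by the filter. Gzmb, a granzyme, went from 0.581 to 29.7 CPM (5.66 ± 0.16) and stood at 10.2 CPM in IsoL, and Gzma went from 0.0701 to 21.8 CPM (8.12 ± 0.25) and stood at 6.54 CPM. Eomes, a transcription factor of cytotoxic and natural killer cells, was below the filter, with 0, 103 and 33 counts in Blank, Model and IsoL.

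By the root mean square difference of centred log2 CPM over the 12 libraries, the tested genes nearest to Trdc were Gnptab (0.139), Hsdl1 (0.146) and Gm50240 (0.147), and Cd3g lay at 0.209. Those nearest to Cd3e were Arhgef17 (0.165), Patz1 (0.170) and Isca1 (0.177), while Trdc lay at 0.316 and Cd3d at 0.459.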
